A study of Gallus gallus with 24 samples.

Results

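The transcripts of complement component 7 (C7), the macrophage receptor with collagenous structure (MARCO) and the type I interleukin-1 receptor (IL1R1) are described here bird by bird in abdominal fat of the fat line (FL) and lean line (LL) of chickens. They are 3 of the 17934 features in the deposited count table, where they stand as C7, Q9I8D5_CHICK and Q90874_CHICK. The 3 genes were selected on their measured FL and LL levels, since they were expressed higher in the LL in earlier results of these same data. Their difference between the lines is therefore given as levels, fold change and standard error, with no test.

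RNA-Seq was made from abdominal fat of 4 FL and 4 LL cockerels at 7 wk. The FL and LL were selected in opposite directions for abdominal fatness, and neither line was treated. They are 2 selected lines without an unselected control line, so a difference between them does not say which line moved. Each bird gave 1 library that was sequenced in 3 runs, and the runs of a bird were summed so that the bird was the replicate. Levels are CPM, the counts of a gene brought to a common library size, with library sizes corrected by the trimmed mean of M-values (TMM), which lowers the weight of a few very abundant transcripts. A CPM is not divided by gene length, so levels are compared between birds and not between genes.

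C7 is one of the terminal complement proteins. After C5 is cleaved, C5b takes up C6 and C7, and the complex then gains the ability to enter a lipid membrane, where C8 and C9 complete the pore. MARCO is a class A scavenger receptor of macrophages that binds bacteria and modified lipoproteins. IL1R1 binds IL-1 and, with the accessory chain IL1RAP, passes the signal through MYD88 towards NF-kB, while IL1R2 is a decoy receptor. In mammals, IL-1 acts on adipocytes to lower their insulin response, and macrophages are the main immune cells of adipose tissue.

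The depth differed between birds. The total count per bird ran from 4299772 to 10878211 in the FL and from 5548867 to 12876999 in the LL. A count of 3, used here as the floor of detection, corresponded to 0.237 to 0.684 CPM. Adipocyte genes were abundant in all birds, with ADIPOQ, PLIN1, FABP4, LPL and PPARG summing to 11912 to 14735 CPM in the FL and 10560 to 13880 CPM in the LL. One library stood apart. FL bird 4 carried skeletal muscle transcripts (ACTA1, MYH1, TNNT3, TNNC2, TNNI2) at 16577 CPM, against 84.9 to 93.0 CPM in the other FL birds and 74.1 to 122.2 CPM in the LL.

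C7 lies on chromosome Z, 12350738 to 12370791 (Gallus gallus build 2.1, as deposited, with the flanking bases that the counting added). The 4 FL birds had 152.2, 213.3, 252.7 and 291.9 CPM, against 662.1, 525.1, 574.6 and 529.5 CPM in LL birds 1 to 4. Every LL bird was above every FL bird, with a wide gap between the lowest LL bird and the highest FL bird. C7 averaged 228 ± 59.6 CPM in the FL and 573 ± 63.6 CPM in the LL (SD, n = 4 each). The fitted log2 fold change (FL over LL) was -1.33 with a standard error of 0.18, equal to 2.52-fold higher in the LL. In a bulk tissue sample, fewer cells of a type and less RNA per cell cannot be told apart, so this value covers either.

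Of the 11187 features tested across all genes with edgeR's quasi-likelihood test, 41 passed an adjusted p of 0.05 and a fold of 1.2, or 0.366%. In 23 of them the FL was above the LL (0.206%), and in 18 the LL was above the FL (0.161%). The birds of the 2 lines did not overlap for C7 and IL1R1. Over all features tested, 8.11% did not overlap, with all LL birds above all FL birds in 4.34% and all FL birds above all LL birds in 3.77%. Since the 3 genes were picked for this contrast, nothing is read from these counts.

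The FL birds differed more in C7 than the LL birds. The highest FL bird was 1.92 times the lowest, and the highest LL bird 1.26 times the lowest. On the log2 scale the SD over birds was 0.40 in the FL, above 82.0% of the features tested in that line, and 0.16 in the LL, above 30.7%. The fibroblast genes PDGFRA, DCN, LUM, COL1A2 and COL3A1 summed to 40908, 50300, 62754 and 65250 CPM in FL birds 1 to 4, which is the order of C7 in these birds. In LL birds 1 to 4 they summed to 52330, 54865, 71421 and 59224 CPM, and LL bird 1, the highest for C7, was the lowest. COL1A2 and COL3A1 made up most of each sum. Taken singly, only COL1A2 kept the order of C7 in FL birds 1 to 4 (15833, 17680, 22926 and 29097 CPM). PDGFRA, DCN, LUM and COL3A1 each had another order. PDGFRA, the receptor that marks fat cell progenitors in mammals, did not overlap between the lines (133 ± 24.3 CPM in the FL and 207 ± 18.7 CPM in the LL, SD, n = 4 each). Its log2 fold change was -0.64 with an edgeR adjusted p of 0.106, so it did not pass the test. The other 4 fibroblast genes overlapped between the lines, with log2 fold changes of -0.13 for DCN, -0.05 for LUM, -0.24 for COL3A1 and 0.09 for COL1A2.

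Mesothelial genes were also set beside C7. MSLN, UPK3B, UPK1B, WT1 and LRRN4 summed to 38.5, 58.9, 54.8 and 50.7 CPM in FL birds 1 to 4 and 49.8, 105.7, 100.4 and 65.3 CPM in LL birds 1 to 4. LL bird 1, the highest for C7, lay inside the FL range for this sum, and the other LL birds lay above it. LRRN4 made up most of each FL sum, at 31.1, 47.9, 45.3 and 34.4 CPM in FL birds 1 to 4. It had 40.2, 45.4, 52.0 and 39.4 CPM in LL birds 1 to 4. All 5 log2 fold changes were negative, at -2.51, -2.71, -2.50, -0.74 and -0.17, the smallest being that of LRRN4. Of the 5, 4 had an unadjusted edgeR p under 0.05, against 13.1% of all features tested in either direction. None passed the adjusted test, with a lowest edgeR adjusted p of 0.149. The 5 were not tested as a set. The part of fibroblasts and mesothelial cells in the C7 result was not tested. FL bird 4, the bird with muscle transcripts, was the highest FL bird for C7, and without it the other FL birds had 152.2 to 252.7 CPM and the log2 fold change was -1.48.

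MARCO lies on chromosome 7, 30078518 to 30088359. The 4 FL birds had 6.42, 44.9, 3.65 and 3.64 CPM, from counts of 59, 197, 27 and 36. LL birds 1 to 4 had 19.0, 35.3, 42.6 and 86.6 CPM, from counts of 134, 200, 540 and 629. FL bird 2 stood above LL birds 1, 2 and 3, and the other FL birds were below all LL birds. MARCO averaged 14.7 ± 20.2 CPM in the FL and 45.9 ± 28.9 CPM in the LL (SD, n = 4 each). The fitted log2 fold change was -1.77 with a standard error of 0.78. Without FL bird 2 the FL ran from 3.64 to 6.42 CPM, and the log2 fold change was -3.31 with a standard error of 0.51.

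Birds of one line differed in MARCO far more than in most genes. The highest FL bird was 12.3 times the lowest and the highest LL bird 4.55 times the lowest. The SD of log2 CPM was 1.68 in the FL and 0.89 in the LL, where the median feature tested had 0.22 in each line. The spread within lines was above 99.3% of the features tested. The biological coefficient of variation fitted by edgeR, the spread between birds beyond counting error, was 72.8% for MARCO. It was 19.9% for C7 and 16.6% for IL1R1, and 20.9% was common to all features. The fit draws the value of each gene towards those of other features, so it does not rest on the gene's own birds alone.

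**Figure D1:**
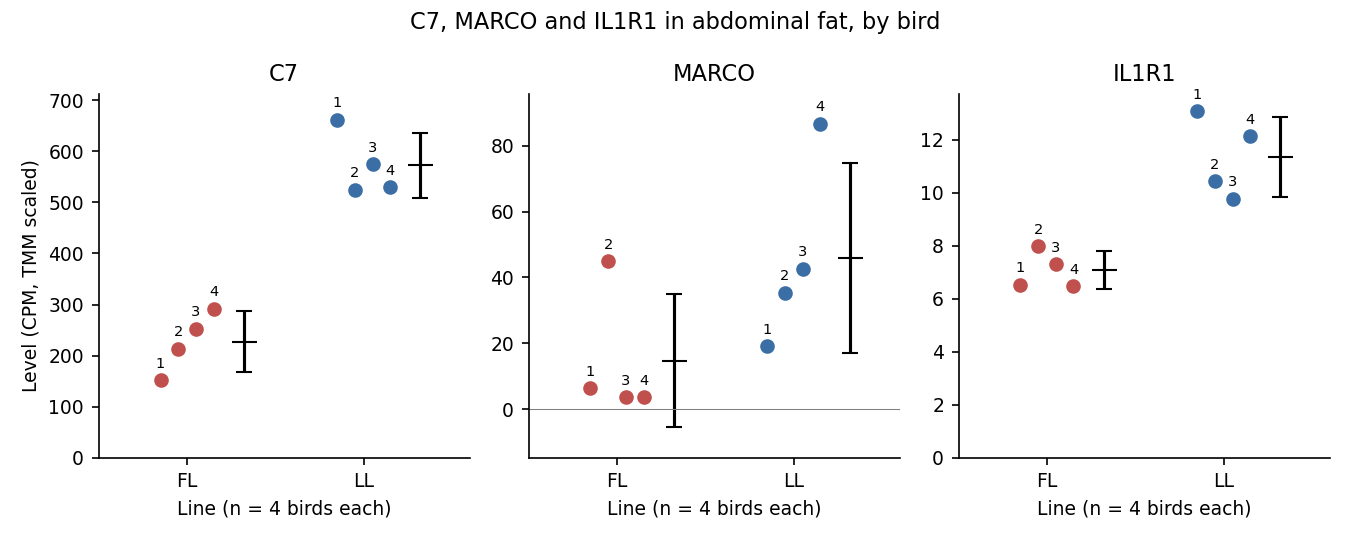
Level of C7, MARCO and IL1R1 in each bird (CPM, TMM scaled; points numbered by bird, FL left and LL right), with the mean and SD of 4 birds as a bar beside them. The LL points of C7 (525.1 to 662.1 CPM) and IL1R1 (9.78 to 13.1 CPM) are above all FL points, while FL bird 2 (44.9 CPM) lies inside the LL range for MARCO.

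The general macrophage genes did not share this spread. CSF1R, the receptor for the macrophage growth factors CSF1 and IL34, had 554 to 717 CPM over the 8 birds, a range of 1.29-fold. It had 621 to 717 CPM in the FL and 554 to 618 CPM in the LL, without overlap, as for 8.11% of all features tested. Its log2 fold change was 0.18 with an edgeR adjusted p of 0.441, so it did not pass the test. CD74, the invariant chain of MHC class II, spanned 1.57-fold, and MARCO spanned 23.8-fold. The summed level of CSF1R, CD74, CTSS, LAPTM5, C1QA, C1QB, C1QC and IRF8 was 6249 to 7123 CPM in the FL and 5100 to 7593 CPM in the LL. Per 100 CSF1R reads, MARCO had 1.03, 6.27, 0.570 and 0.553 reads in FL birds 1 to 4, against 3.08, 6.03, 7.57 and 15.6 reads in LL birds 1 to 4. The ratio to CSF1R thus left FL bird 2 within the LL range and the other FL birds below it. CSF1R, the divisor, was itself somewhat higher in the FL, which lowers the FL ratios.

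A red cell marker was also set beside MARCO. HBAD, the alpha-D globin of erythrocytes, had 79.8, 170.6, 63.2 and 61.1 CPM in FL birds 1 to 4 and 39.9, 69.3, 98.3 and 124.1 CPM in LL birds 1 to 4. The order of the birds within each line was the order of MARCO, with FL birds 3 and 4 nearly equal in both genes. HBAD itself averaged 93.7 ± 52.0 CPM in the FL and 82.9 ± 36.4 CPM in the LL (SD, n = 4 each), with a log2 fold change of 0.16 and an edgeR adjusted p of 0.906. It was the only 1 of 6 erythrocyte markers in the list that was matched by name, and the part of blood in the MARCO values was not tested. Markers of T cells, B cells, thrombocytes, endothelial cells and smooth muscle were summed too and are not given here. With several cell types looked at in 4 birds per line, the shared order of HBAD and MARCO carries no test.

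**Figure D2:**
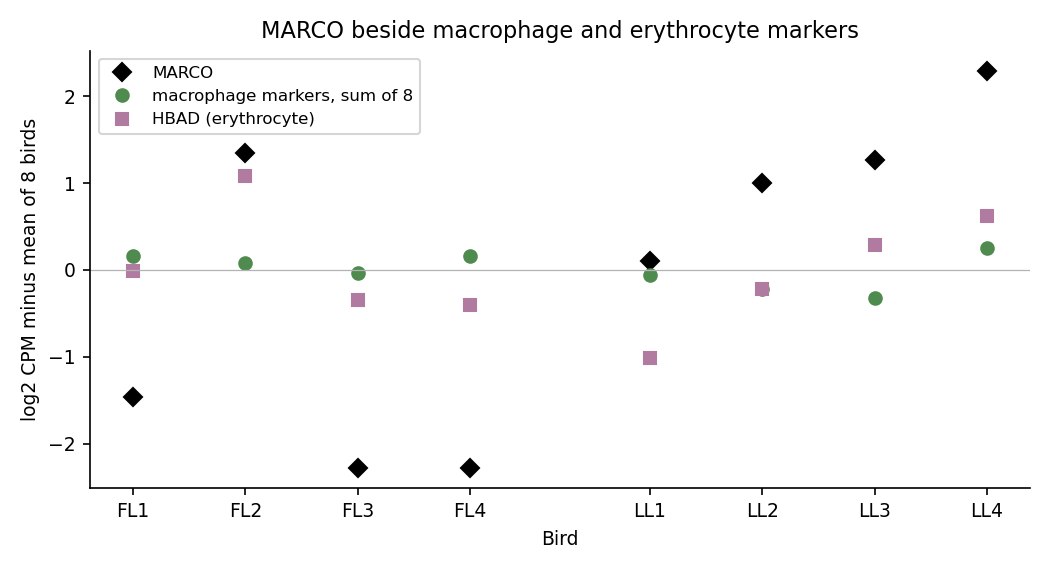
MARCO, the sum of 8 macrophage markers and the erythrocyte gene HBAD in each bird, as log2 CPM minus the mean of the 8 birds (FL birds left, LL birds right). MARCO spans 23.8-fold and the macrophage sum 1.49-fold, and FL bird 2 is the highest FL bird for both MARCO and HBAD.

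IL1R1 lies on chromosome 1, 138002737 to 138026352. The 4 FL birds had 6.52, 7.98, 7.31 and 6.47 CPM, from counts of 60, 35, 54 and 64. LL birds 1 to 4 had 13.1, 10.4, 9.78 and 12.1 CPM, from counts of 92, 59, 124 and 88. All LL birds were above all FL birds, but the gap was narrow, with the lowest LL bird at 1.22 times the highest FL bird. IL1R1 averaged 7.07 ± 0.718 CPM in the FL and 11.3 ± 1.51 CPM in the LL (SD, n = 4 each). The fitted log2 fold change was -0.69 with a standard error of 0.17, equal to 1.61-fold higher in the LL. The lines were separated by little more than counting error in single birds. The 95% Poisson interval of FL bird 2 was 5.56 to 11.1 CPM and overlapped that of LL bird 3, 8.13 to 11.7 CPM. These intervals cover counting error only.

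The repeated runs of each bird show the scatter from sequencing and counting. They repeat 1 library, so dissection, RNA extraction and library preparation cannot be told apart from the bird. For each gene the scatter was set against counting error as a chi-square per degree of freedom, where 1 is counting error alone. When the 2 runs of Scheme C, in which all 8 libraries shared a lane, were compared within birds, this value was 0.40 for C7, 1.40 for MARCO and 1.204 for IL1R1, and the median feature tested had 0.92. When the first run was set against the pair of Scheme C runs it was 3.18 for C7, 1.33 for MARCO and 1.33 for IL1R1, with a median of 2.01. Between birds of the same line the values were 143 in the FL and 47.9 in the LL for C7. They were 199 in the FL and 129.6 in the LL for MARCO. For IL1R1 they were 0.46 in the FL and 1.79 in the LL, where the median feature tested had 4.07 in the FL and 4.09 in the LL. Taken from Scheme C runs alone, the log2 fold change was -1.32 for C7, -2.13 for MARCO and -0.77 for IL1R1, and from first runs alone it was -1.33, -1.55 and -0.63. These values grow with the count, so C7, with 2971 to 7288 reads in each LL bird, has a high value there although its log2 SD of 0.16 was below the 0.22 of the median feature. For IL1R1, no difference between FL birds beyond counting error was seen, and at its depth counting error could hide a small one.

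**Figure D3:**
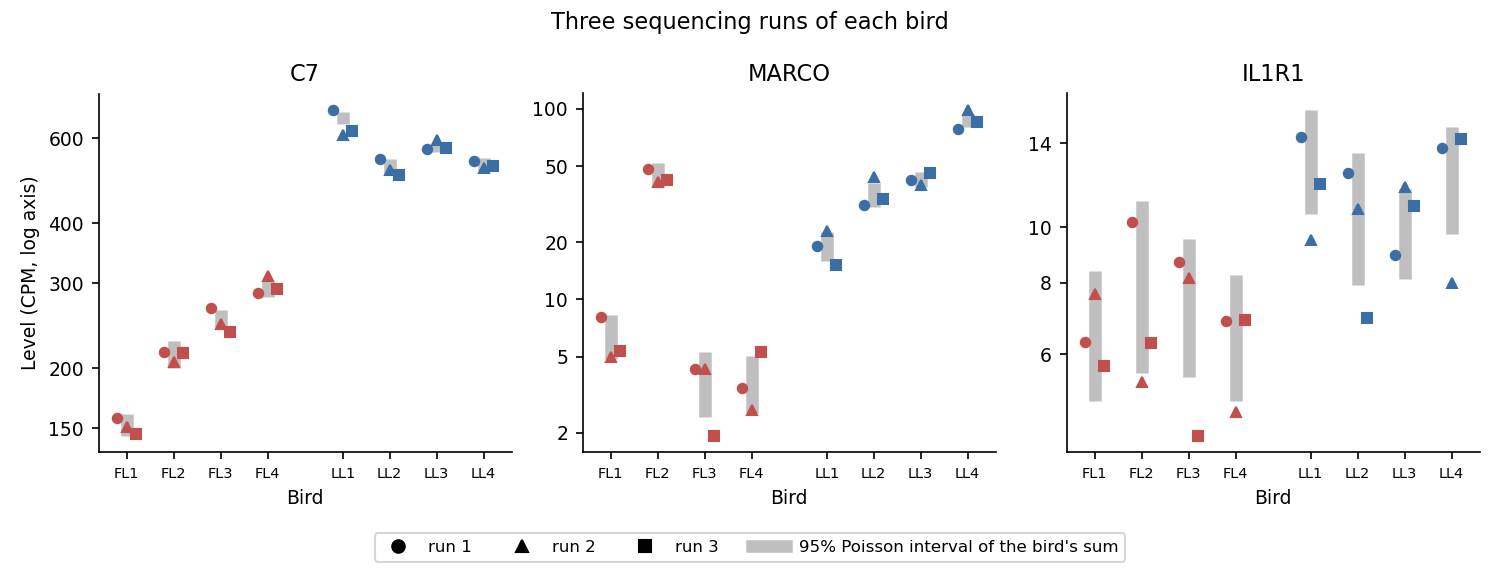
CPM (log axis) of the 3 genes in each of the 3 runs of each bird, FL birds left and LL birds right, with the 95% Poisson interval of the bird's summed count in grey. Runs of a bird stay together for C7 (145.7 to 310.6 CPM in the FL, 503 to 688 CPM in the LL). For MARCO the runs of FL bird 2 (41.3 to 48.3 CPM) lie apart from those of the other FL birds (1.92 to 8.06 CPM), which intermix. MARCO runs of LL birds 2 and 3 also overlap. Run values of the lines overlap for IL1R1 (4.32 to 10.2 CPM in the FL, 6.94 to 14.4 CPM in the LL).

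The covariation of the 3 genes was tested within lines, after the mean of each line was subtracted, since the line means had been used to choose them. No pair passed, over the 8 birds, an exact two-sided permutation test that reordered birds within lines (576 orders, smallest possible p 0.0017). For C7 and MARCO, Pearson's r was -0.38 (exact permutation p = 0.540, adjusted over the 3 pairs 0.672) and Spearman's rho was -0.57 (exact permutation p = 0.201, adjusted 0.604). For C7 and IL1R1, r was 0.18 (exact permutation p = 0.672, adjusted 0.672) and rho was 0.02 (exact permutation p = 0.972, adjusted 0.972). For MARCO and IL1R1, r was 0.32 (exact permutation p = 0.434, adjusted 0.672) and rho was 0.21 (exact permutation p = 0.576, adjusted 0.865). With 8 birds a weak relation could not have been detected.

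Single birds set these coefficients. Without FL birds 1 and 4, the 2 farthest from the median of C7, r was -0.81 for C7 and MARCO and 0.28 for C7 and IL1R1. Without FL bird 2 and LL bird 4, the 2 farthest from the median of MARCO, r for MARCO and IL1R1 was -0.84 and so had the other sign. The exact permutation p of these 3 coefficients over 6 birds was 0.167, 0.688 and 0.111.

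**Figure D4:**
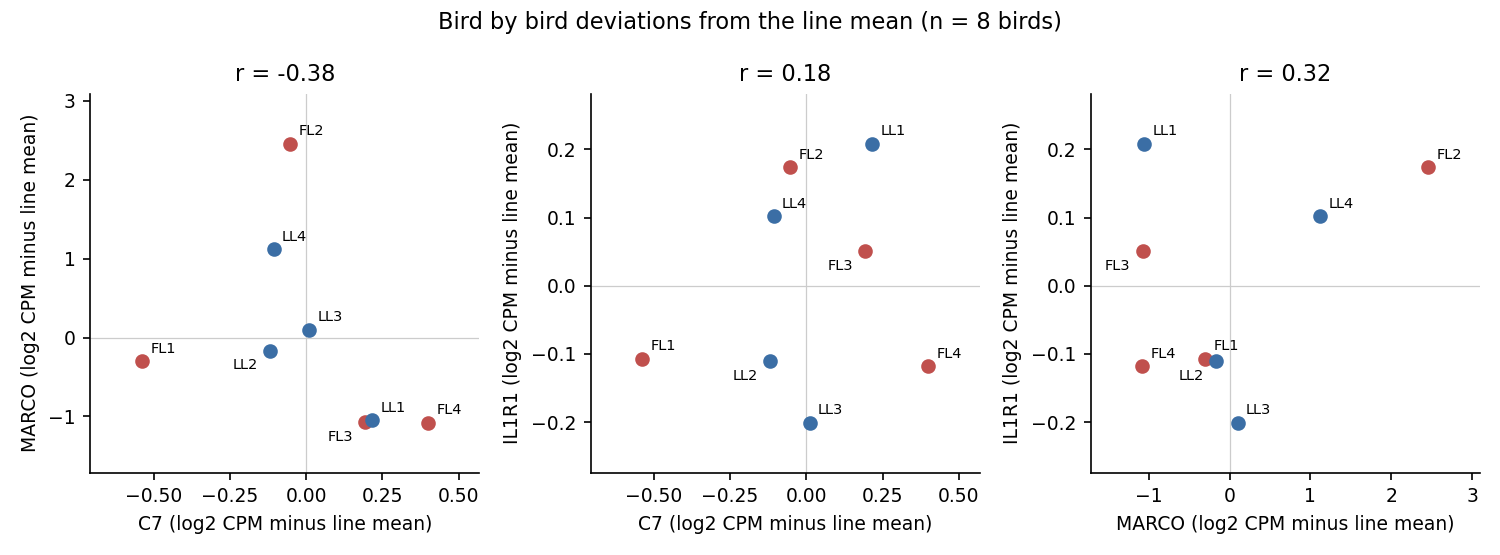
Deviation of each bird from its line mean (log2 CPM) for the 3 pairs of genes, FL birds in red and LL birds in blue. FL bird 2 lies 2.46 above the FL mean for MARCO, and the pairs have r of -0.38, 0.18 and 0.32 over 8 birds.

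The complement genes other than C7 gave no call. Of 51 symbols in the list without C7, 21 were matched by name and 18 were tested, and none passed the edgeR test in either direction. With 0.366% of all features called, no call in 18 says nothing particular about the list. At an unadjusted p under 0.05 there were 2, near the share over all features tested, which was 13.1% (1466 of 11187). DESeq2, which called 306 of 15140 features, also called none of the list. The median log2 fold change of the 18 was -0.05, against 0.00 over all features tested, with 8 positive and 10 negative. No tested gene of the list separated the birds of the 2 lines without overlap, against 8.11% of all features.

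The genes nearest to C7 in the cascade were at low levels. C5, whose cleavage starts terminal assembly, had 4, 2, 3 and 7 counts in FL birds 1 to 4 and 3, 14, 33 and 12 counts in LL birds 1 to 4, too few to be tested. C8A had no count in any FL bird and 0, 2, 8 and 0 counts in the LL. C8B, the beta chain of C8, had no count in any FL bird and 1, 3, 10 and 0 counts in the LL. C8A and C8B were therefore at or near the floor in both lines. C8G, the gamma chain, was measured at 12.02 ± 3.68 CPM in the FL and 9.55 ± 4.47 CPM in the LL (SD, n = 4 each), with a log2 fold change of 0.34 and an edgeR adjusted p of 0.740. C3, the central component, was measured at 32.6 ± 7.33 CPM in the FL and 38.4 ± 4.42 CPM in the LL (SD, n = 4 each), with a log2 fold change of -0.24 and an edgeR adjusted p of 0.581. C6 and C9 were not matched by name, and features without a symbol were not searched for them.

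The regulators held the lowest p of the complement list. CD59, the membrane protein that blocks pore completion by C8 and C9, had 178.7, 139.6, 116.1 and 170.9 CPM in FL birds 1 to 4 and 124.4, 81.8, 79.8 and 125.9 CPM in LL birds 1 to 4. Its log2 fold change was 0.56 with an edgeR adjusted p of 0.236. CD55, which speeds the decay of the C3 convertases, had 57.2 ± 20.5 CPM in the FL and 84.1 ± 19.2 CPM in the LL (SD, n = 4 each), with a log2 fold change of -0.56 and an edgeR adjusted p of 0.377. The groups overlapped for both, and neither passed the test. SERPING1, the inhibitor of C1, and C1QC, a chain of C1q, had log2 fold changes of -0.33 and 0.37. CLU, an inhibitor, and the integrin chain ITGB2, both abundant, had log2 fold changes of 0.13 and 0.23, neither of which passed the test.

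The genes around IL1R1 in its pathway gave no call either. Of 69 symbols in the list without IL1R1, 34 were matched and 27 tested, and none passed the edgeR test. At an unadjusted p under 0.05 there were 4 of the 27, a share near the 13.1% of all features in either direction. All 4 were higher in the FL, against 726 of the 1466 such features over all those tested. DESeq2 called 1 of the 34 that it tested, IL1RAPL2, against 306 of 15140 features. The median log2 fold change of the 27 was -0.04, with 12 positive and 15 negative. The birds of the lines did not overlap in 3 of the 27, a share near the 8.11% of all features tested.

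Among the receptors, IL1RAP, the accessory chain that IL1R1 needs for signalling, was measured at 27.6 ± 1.90 CPM in the FL and 29.6 ± 1.85 CPM in the LL (SD, n = 4 each). Its log2 fold change was -0.11 with an edgeR adjusted p of 0.740. IL1R2, the decoy, had 9, 10, 13 and 7 counts in FL birds 1 to 4 and 4, 2, 10 and 5 counts in LL birds 1 to 4. These are 1.43 ± 0.721 CPM in the FL and 0.600 ± 0.187 CPM in the LL (SD, n = 4 each), and the gene was too low to be tested. IL1RL2, the receptor for IL-36 in mammals, had a log2 fold change of -0.63 with a standard error of 0.49. IL1RAPL2, a relative of IL1RAP, had 6.74, 6.62, 18.3 and 9.71 CPM in FL birds 1 to 4 and 2.84, 6.19, 3.94 and 4.41 CPM in LL birds 1 to 4. Its lowest FL bird was just above its highest LL bird, and its log2 fold change of 1.27 had an edgeR adjusted p of 0.164. IL18RAP, SIGIRR and IL1RAPL1 were too low to be tested, with at most 11 counts in any bird. IL1RL1 and IL18R1 were not matched by name, and features without a symbol were not searched for them.

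Among the ligands, IL1B had 16, 10, 39 and 12 counts in FL birds 1 to 4 and 6, 8, 16 and 4 counts in LL birds 1 to 4. Its log2 fold change was 1.32 with a standard error of 0.51 and an edgeR adjusted p of 0.287. IL18 was measured at 4.94 ± 1.44 CPM in the FL and 5.59 ± 2.17 CPM in the LL (SD, n = 4 each). PTGS2, the inducible cyclooxygenase and a target of IL-1 signalling, had 42.95, 36.5, 123.8 and 35.2 CPM in FL birds 1 to 4 and 23.4, 24.9, 33.2 and 32.8 CPM in LL birds 1 to 4. All FL birds were above all LL birds, and its log2 fold change was 1.06 with an edgeR adjusted p of 0.257. FL bird 3 was the highest bird for IL1B, PTGS2 and the transcription factor CEBPB (46.4 CPM, against 18.8 to 21.8 CPM in the other FL birds). IL1R1 in FL bird 3, at 7.31 CPM, lay inside the range of the other FL birds. The most abundant genes of the list, NFKBIA, TNFAIP2 and VCAM1, had log2 fold changes of 0.12, 0.17 and -0.11.

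The scavenger receptors and macrophage genes, the list of MARCO, also gave no call. Of 74 symbols, 33 were matched and all 33 were tested, among them C1QA, C1QB, C1QC and ITGB2, which the complement list also holds. None passed the edgeR test, against 0.366% of all features, and 3 had an unadjusted p under 0.05, against 13.1% of all features. DESeq2 called 1 of the 33, LYN, against 306 of 15140 features. The median log2 fold change was 0.04, with 21 positive and 12 negative, and the birds of the lines did not overlap in 3 of the 33, near the 8.11% of all features tested. Among the 13 scavenger receptors the log2 fold changes ran from -0.43 to 0.16. CD36, the fatty acid and oxidised lipoprotein receptor, had 2557 ± 292 CPM in the FL and 2287 ± 84.5 CPM in the LL (SD, n = 4 each), with a log2 fold change of 0.16. LY75, an endocytic receptor of the mannose receptor family, had a log2 fold change of -0.21, and MEGF10, an engulfment receptor, had -0.43. Neither passed the test, with edgeR adjusted p of 0.344 and 0.381. MSR1 and CD163 were not matched by name, and features without a symbol were not searched for them.

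Of the 20 macrophage genes, 16 had a positive log2 fold change, against 5646 of the 11187 features tested. The median of the 20 was 0.18, against 0.00 over all features tested, and the 20 were not tested as a set. LYN, a Src-family kinase of leukocytes, had 218.3, 193.7, 153.2 and 158.3 CPM in FL birds 1 to 4 and 137.3, 118.6, 78.5 and 104.7 CPM in LL birds 1 to 4. All FL birds were above all LL birds, with a log2 fold change of 0.72 and an edgeR adjusted p of 0.135. HMOX1, which degrades haem, had 33.6 ± 7.58 CPM in the FL and 25.4 ± 4.02 CPM in the LL (SD, n = 4 each), with an edgeR adjusted p of 0.347. CD74 and the protease gene CTSB, abundant in both lines, had log2 fold changes of 0.16 and 0.20.

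**Figure D5:**
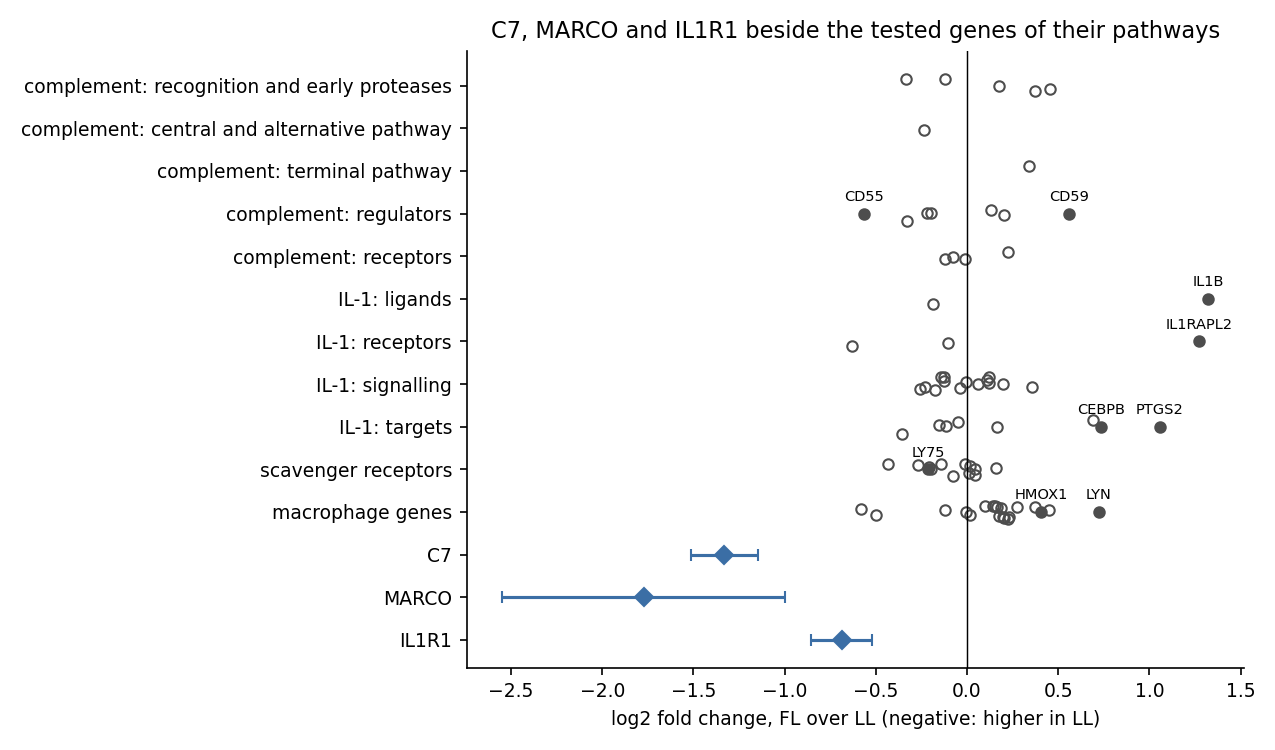
Log2 fold change (FL over LL, negative is higher in the LL) of each tested gene of the complement, IL-1 and scavenger receptor or macrophage lists by role, above C7, MARCO and IL1R1 with their standard errors. Filled and named points had an unadjusted p under 0.05, and none passed the adjusted test. The 3 chosen genes stand at -1.33, -1.77 and -0.69, a place that their selection on this difference had set.

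The genes that lie beside the 3 in the genome were compared with them. The feature that starts 8796 bases after C7, B8ZX71_CHICK, had no count in any FL bird and 2, 2, 14 and 4 counts in LL birds 1 to 4. It had no symbol and its gene was not identified. Complement genes not matched by name, such as C6 and C9, could be among such features. PLCXD3, 65600 bases after C7, was below 1 CPM on average in both lines. RPL37, a ribosomal protein gene 16122 bases before C7, was measured at 53.5 ± 9.57 CPM in the FL and 62.9 ± 13.3 CPM in the LL (SD, n = 4 each). Its log2 fold change was -0.23 with an edgeR adjusted p of 0.609. The remaining neighbour, ENSGALG00000024621, which lies within the span of RPL37, had no count in any bird.

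Beside MARCO, ENSGALG00000012120, which starts 28201 bases after it, was measured at 14.6 ± 1.45 CPM in the FL and 13.6 ± 5.55 CPM in the LL (SD, n = 4 each), with a log2 fold change of 0.09 and an edgeR adjusted p of 0.922. C1QL2, ENSGALG00000020606 and ENSGALG00000020603, the other neighbours of MARCO, were too low to be tested.

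IL1R1 sits in a row of related receptors on chromosome 1, between IL1R2, which ends 50304 bases before it, and IL1RL2, which starts 13282 bases after it. MAP4K4, a kinase gene on the far side of IL1R2, was measured at 248 ± 10.5 CPM in the FL and 249.6 ± 15.8 CPM in the LL (SD, n = 4 each). The next feature after IL1RL2, Q9DEE2_CHICK, had no symbol and its gene was not identified. It had 6.12 ± 1.48 CPM in the FL and 5.81 ± 1.23 CPM in the LL, with a log2 fold change of 0.06 and an edgeR adjusted p of 0.941. None of the tested features beside the 3 genes passed the test.

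Likeness to each gene was measured as Pearson's r of line-centred log2 CPM over the 8 birds, and the highest 5 of the features tested are named as a description. The values are the highest of 11186 and share depth and tissue, so they carry no test. For C7 they were ENSGALG00000004952 (0.97), FAAH (0.96), ENTPD2 (0.95), ENSGALG00000023675 (0.95) and ENSGALG00000006325 (0.95). FAAH, which degrades fatty acid amides such as anandamide, followed C7 from bird to bird but lay on the other side between the lines. It had 151 ± 23.1 CPM in the FL and 108.7 ± 4.42 CPM in the LL (SD, n = 4 each), without overlap, and its log2 fold change of 0.48 had an edgeR adjusted p of 0.1355. ENSGALG00000006325 lay on the side of C7, with a log2 fold change of -0.63 and an edgeR adjusted p of 0.156.

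For MARCO the 5 were VSTM4 (0.96), TMEM67 (0.96), ENSGALG00000017013 (0.95), FBXO5 (0.95) and SCLT1 (0.95). VSTM4 had 8.44 CPM in FL bird 2, against 4.85 to 5.01 CPM in the other FL birds. TMEM67, a gene of the ciliary transition zone, had 9.58 CPM in FL bird 2 and 4.75 to 5.55 CPM in the other FL birds. FL bird 2 stood above its line in these 2 low genes by less than in MARCO. Both were picked for likeness to MARCO, in which FL bird 2 is far above its line, so this was favoured in advance. Their counts in FL bird 2, the shallowest library, were 37 and 42. For IL1R1 the 5 were Q5ZHP4_CHICK (0.99), Q5ZMP4_CHICK (0.99), C13orf18 (0.99), N6MT2_CHICK (0.98) and C1orf174 (0.98). The log2 fold changes of these 5 ran from -0.14 for C13orf18 to 0.35 for Q5ZHP4_CHICK, and none passed the test.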

How the data were processed

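RNA-Seq libraries of abdominal fat from 4 FL and 4 LL chickens were each sequenced in 3 runs. The authors processed the reads with CASAVA 1.8.2 (per the labels) and CLC Genomics Workbench 5.1, mapped them to Gallus gallus build 2.1 with the Ensembl 64 annotation, allowed flanking bases around genes, left out reads with several matches, and deposited raw counts per gene and run. Counting by strand is not stated, so overlapping genes could share reads. Their 24 normalized run columns and their fold changes, p-values and FDR values were not used. The sources describe the lane schemes and the RNA extraction in different ways. Scheme C, with all libraries in one lane, is therefore named from the study's methods.

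The 3 run counts of a bird were summed. Features were filtered with filterByExpr, scaled by TMM and fitted with edgeR 4.0.16 (glmQLFit, glmQLFTest, line as the only term) under R 4.3.3, and p-values were adjusted by Benjamini-Hochberg over the 11187 features kept. Called genes had an adjusted p of at most 0.05 and a fold of at least 1.2. Fold changes are FL over LL. Standard errors are the absolute log2 fold change over the square root of F. Log2 CPM used a prior count of 2. DESeq2 1.42.0 was an alternative. Poisson intervals (95%) and the floor of 3 counts cover counting error only. Symbols were taken from the deposited table (8138 features), the study's tables (2651) or the entry name (564), in all 11353 of 17934 features. List genes not matched by name were not analysed under their names, and could be among the features without a symbol. The methods were tested on simulated data.

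The 3 genes, the lists and the tests were chosen with earlier results of these data known. Genes named are the 3 genes, their nearest 2 neighbours on each side, their 5 most alike and the cell type markers. The rule adds the terminal complement genes and the IL-1 ligands and receptors that were matched by name. From each list it also adds the genes called, the 4 with the lowest p and the 3 with the highest CPM. A gene that this rule names is not reported here. Alternatives were another scaling, tool, filter or set of runs, a replicate block, and each bird left out. The edgeR p-values set the FL and LL difference against the spread between these 8 birds, moderated across features. The permutation p-values concern the order of birds within lines. Each bird gave 1 library.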

Additional observations from a re-analysis of the deposited data

Results flagged for a closer look

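Of 118 groups of 4 birds examined (59 genes or marker sums, each in the FL and in the LL), 11 held a bird far from the other 3 by Dixon's criterion at the 95% level, which chance alone reaches in about 1 in 20 groups. MARCO in FL bird 2 was 44.9 CPM, with the other FL birds at 3.64 to 6.42 CPM. In the same bird the erythrocyte gene HBAD was 170.6 CPM (others 61.1 to 79.8 CPM), VSTM4 was 8.44 CPM (others 4.85 to 5.01 CPM), TMEM67 was 9.58 CPM (others 4.75 to 5.55 CPM) and FBXO5 was 5.70 CPM (others 3.24 to 3.65 CPM). VSTM4, TMEM67 and FBXO5 had been named for their likeness to MARCO over these birds, so their flags are not independent of it. In FL bird 3, PTGS2 was 123.8 CPM (others 35.2 to 42.95 CPM) and CEBPB was 46.4 CPM (others 18.8 to 21.8 CPM). In FL bird 4, the skeletal muscle markers summed to 16577 CPM (others 84.9 to 93.0 CPM) and RPL37 was 67.8 CPM (others 47.7 to 50.5 CPM). In LL bird 4, IL18 was 8.82 CPM (others 4.06 to 4.81 CPM), and in LL bird 1, SERPING1 was 42.5 CPM (others 60.6 to 61.3 CPM). C7 and IL1R1 had no such bird in either line.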

How the results depend on the processing

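All 16 alternatives kept the sign of C7, MARCO and IL1R1. With one bird left out, the log2 fold change ran from -1.48 to -1.18 for C7, from -3.31 (without FL bird 2) to -1.25 (without LL bird 4) for MARCO, and from -0.76 to -0.61 for IL1R1. The 41 DE genes became 306 with DESeq2, 27 without the low-count filter, 135 from Scheme C runs only, 1 from first runs only and 1328 with the 24 runs taken as replicates. They stayed near 41 with total counts in place of TMM (46) and with at least 10 counts required in every bird (39). Without one bird they ranged from 2 to 65, at 6, 15, 2 and 65 without FL birds 1 to 4. They were 34, 2, 16 and 3 without LL birds 1 to 4. With 24 runs as replicates, the complement list gave 2 calls of 16 tested (CD55 and CD59) and the IL-1 list 2 of 24. The scavenger receptor and macrophage list gave 3 of 29. That setting called 1328 of 9465 features and counts runs of 1 library as birds, so nothing is read from these calls. DESeq2 called 1 of 34 in the IL-1 list and 1 of 33 in the scavenger receptor and macrophage list, against 306 of 15140 features. Scheme C runs only gave 1 of 33 in the latter list, against 135 of 10515 features (LYN in both). All 3 lists stayed at 0 calls when any one bird was left out. The correlation of C7 and IL1R1 turned to -0.32 and that of MARCO and IL1R1 to -0.056 in Scheme C runs only. With one bird left out, r ran from -0.84 to -0.20 for C7 and MARCO, from -0.13 to 0.53 for C7 and IL1R1, and from -0.24 to 0.72 for MARCO and IL1R1. Without FL bird 2, C7 and MARCO had r of -0.61 (exact permutation p = 0.0486, unadjusted). The r of -0.84 came without FL bird 1 (exact permutation p = 0.0764, unadjusted). The former was the lowest p over all pairs and alternatives tried, without adjustment for their number, so no relation is read from it. Without FL bird 2 the r of MARCO and IL1R1 was -0.24, and without FL bird 1 or LL bird 1 that of C7 and IL1R1 was -0.13 or -0.02. The cause of these changes was not tested.

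The birds share only a number across lines: same-numbered birds correlated at 0.23, -0.06, -0.11 and -0.06 in their deviations. Only FL bird 1 and LL bird 1 correlated best with their own number. With the replicate number as a block, 8 DE genes were called, and the log2 fold changes were -1.36, -2.25 and -0.69 for C7, MARCO and IL1R1. At counts of 27 to 124 per bird for IL1R1 and for MARCO in most FL birds, depth limits what single birds can show.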

Other observations

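Per 100 HBAD reads, MARCO had 8.04, 26.3, 5.78 and 5.96 reads in FL birds 1 to 4 and 47.7, 51.0, 43.3 and 69.8 reads in LL birds 1 to 4. The 2 lines did not overlap on this ratio, while they overlapped in MARCO alone. The ratio was chosen after the values of both genes were seen, and it carries no test.

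The low counts of C5, C8A, C8B and B8ZX71_CHICK in the LL had their highest values in LL bird 3, at 33, 8, 10 and 14 counts. LL bird 3 is also the deepest library. Scaled for depth, C5 had 0.426, 2.47, 2.60 and 1.65 CPM in LL birds 1 to 4. The mesothelial gene MSLN had 1.14, 17.0, 14.1 and 5.23 CPM in the same birds, against 1.96, 1.597, 1.08 and 1.82 CPM in FL birds 1 to 4. C7 was highest in LL bird 1, the LL bird with the lowest C5 and MSLN.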
